A study of Mus musculus with 360 samples.

Results

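Hair cells of the cochlea are specified by a small network of transcription factors, in which ATOH1 acts first and POU4F3 and GFI1 act after it. Around these 3 genes lie other genes that specify hair cells, mature them or serve as partners of the network. The 9 described here are Lhx3, Barhl1, Nhlh1, Hes6, Rbm24, Eya1, Lmo1, Runx1t1 and Mgat5b. They were chosen by name, with earlier results of these data known, and are 9 of the 48440 genes of the matrix. Each was read as its level and as its share of cells with a transcript, by the authors' cluster and by genotype, so that genes already on in control cells could be set apart from genes seen nearly only in GAP cells. Not all of them act on transcription. Rbm24 encodes an RNA-binding protein that regulates splicing, and Mgat5b encodes an N-acetylglucosaminyltransferase that branches glycans.

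GAP cells came from Fbxo2CreERT2::Rosa26-tdTomato::Rosa26-GAP mice and control cells from Fbxo2CreERT2::Rosa26-tdTomato mice, with 180 cells of each. Both genotypes carried the tamoxifen-inducible Cre of the Fbxo2 locus and the tdTomato reporter. Both also received tamoxifen at 3 weeks of age, and their cochleae were dissociated with papain at 5 weeks. The Rosa26-GAP allele is the one difference in genotype that the labels give, and the series title ties it to Atoh1, Gfi1 and Pou4f3. Cre of this kind acts only in cells that use the Fbxo2 locus. Single cells were sorted by flow cytometry into wells and sequenced by SMART-MATQ, which primes along whole transcripts and tags molecules with unique molecular identifiers (UMIs). The gate of the sort is not given in the labels, so the share of sorted cells with Cre activity was not tested.

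No animals are named in the labels, so a genotype is 1 sample, cells are not replicates, and no test was made. Levels are given as CPM, the UMIs of a gene summed over a set of cells and scaled to the same total for every set. Bracketed values are exact 95% intervals, which cover counting error only. GAP cells held 5366362 UMIs (median 28963 per cell) and control cells 4001274 (median 21280). Titles carry the letters C and D for GAP and A and B for control. Each letter holds 1 genotype, so letter and genotype cannot be told apart. The genes of the allele followed the labels, with Atoh1 at 805 CPM in GAP cells and 0 UMIs in control cells.

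Of the 9 genes, 2 were on in control cells at 10 CPM or more, and 7 were near 0 there. Eya1 and Hes6 were the genes already on. Nhlh1 and Lmo1 had 5 and 2 UMIs in control cells, and Lhx3, Barhl1, Rbm24, Runx1t1 and Mgat5b had none. A count of 0 in 180 control cells allows up to 0.750 CPM at 3 counts, and up to 0.922 CPM by its exact interval. A fold against 0 UMIs is given below as the lower limit of the exact interval of the ratio. Of 8 members that reached 10 CPM in GAP cells, 4 had 0 control UMIs, against 1.34% of all 9695 genes at that level in GAP cells. Fewer cells with a transcript and less transcript per cell cannot be told apart in such sums, and shares of cells are therefore given beside them.

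Measured by size, 7 of the 8 members with 10 CPM in either genotype were higher in GAP cells by 2-fold or more, and 0 were lower by as much. Across all 10152 genes at that level 13% were at least 2-fold higher and 6.61% at least 2-fold lower. Since the members were chosen with earlier results of these data known, their counts beside all genes are a description. The log2 ratio with 1 CPM added to both levels had a median of 4.94 over the 8 members (5.00 with genes at 0 in control cells set to their bound), against 0.10 over all genes. Eya1 lay between the 2 limits, and Lhx3 stayed below 10 CPM in both genotypes. For all 9 members both GAP letters lay above both control letters, as they did for 33.7% of all genes measured.

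**Figure D1:**
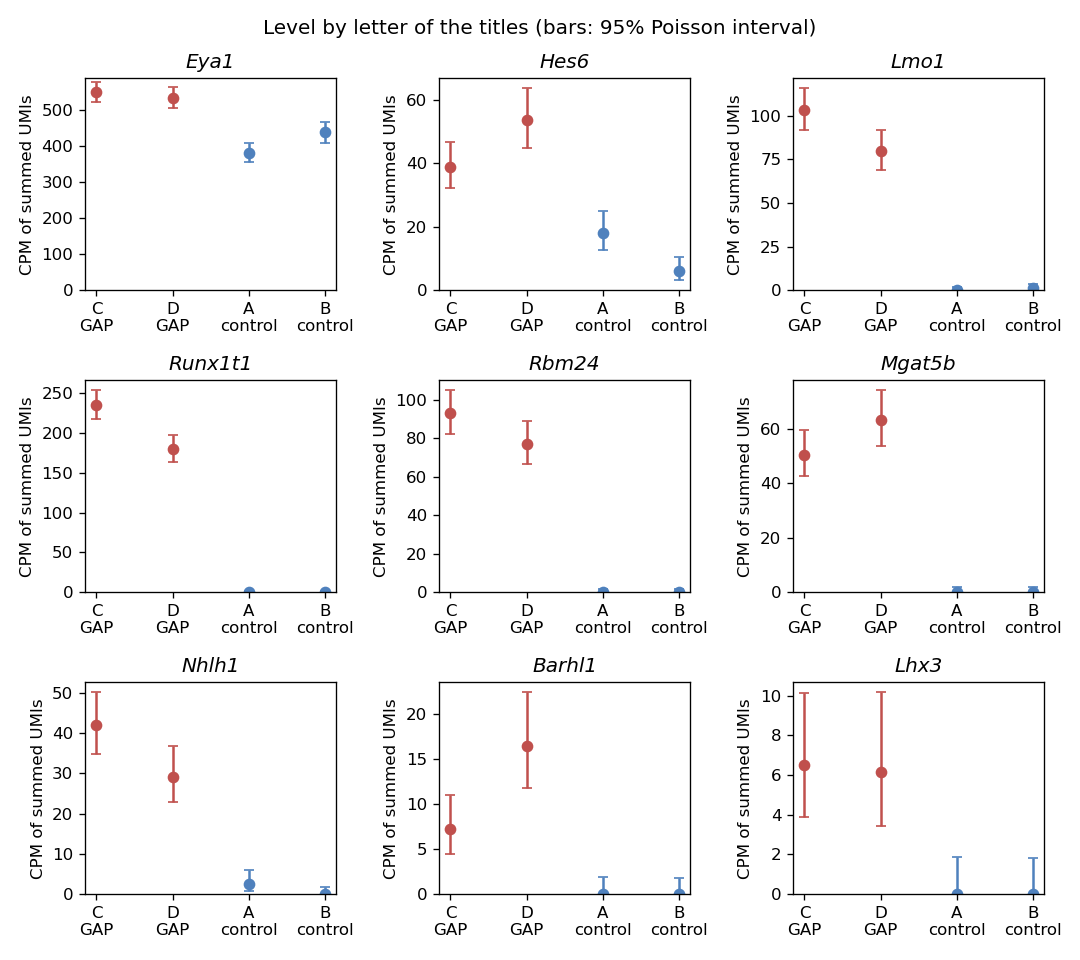
Level of each gene by letter of the sample titles, as CPM of summed UMIs on a linear axis that starts at 0, with exact 95% Poisson intervals. GAP letters C and D stand left in red and control letters A and B right in blue. Control letters lie at or near 0 for 7 genes, while Hes6 (38.9 and 53.8 CPM in C and D, 18.1 and 5.95 in A and B) and Eya1 (548 and 532, 380 and 437) are present in both genotypes.

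Eya1 encodes a phosphatase that serves as a transcriptional coactivator in the developing ear. It lies on chromosome 1 (GRCm38, 14168954 to 14310235, minus strand). It was at 548 and 532 CPM in GAP letters C and D, against 380 and 437 CPM in control letters A and B. The letters did not overlap, and the pooled ratio was 1.32 (1.25 to 1.41), the smallest of the 9. Per cell, Eya1 had a lowest value of 0, a median of 465 and a highest value of 2252 CPM in GAP cells, against 0, 386 and 2557 CPM in control cells. The cells of the genotypes overlapped almost throughout. A transcript was found in 95% of GAP cells and 93.3% of control cells, which makes Eya1 the one member that nearly every cell carried.

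Hes6 is a member of the HES family that opposes the repressor HES1, and it is also on in developing neurons and muscle. It lies on chromosome 1 (91411483 to 91414038, minus strand). It was at 38.9 and 53.8 CPM in letters C and D, against 18.1 and 5.95 CPM in letters A and B. The letters did not overlap, but letter B had only 0.328 of the level of letter A (0.155 to 0.645). The pooled level was 45.7 CPM for GAP and 11.996 CPM for control cells, a ratio of 3.81 (2.78 to 5.30), and by pair of letters it ran from 2.14 for C over A to 9.04 for D over B. A transcript was found in 70 of 180 GAP cells and 20 of 180 control cells (17.8% and 5.65% with every cell thinned to 8000 UMIs). Without letter A, Hes6 in control cells was at 5.95 CPM and below the limit for being on.

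Among the factors that bind DNA, Nhlh1, Barhl1 and Lhx3 had 5, 0 and 0 UMIs in control cells. Nhlh1, a basic helix-loop-helix factor of developing neurons, lies on chromosome 1 (172052292 to 172057573, minus strand). It was at 41.98 and 29.1 CPM in letters C and D, against 2.52 and 0 CPM in letters A and B. Its 5 control UMIs came from 2 cells of letter A. The pooled levels were 36.2 CPM for GAP and 1.25 CPM for control cells, a ratio of 28.9 (12.2 to 90.1), and 56 GAP cells held a transcript. Since Nhlh1 is a neuronal gene, neuron markers are given beside it. The 10 listed summed to 265 CPM in GAP cells (lowest cell 0, highest 2330) and 171.7 CPM in control cells (0 to 1002), with 1 of 10 at 10 CPM or more. Tubb3, Nefl, Prph and Gap43 had 0 UMIs in GAP cells, and Tubb3, Nefh, Nefl, Nefm, Snap25 and Gap43 had 0 UMIs in control cells.

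Barhl1, a homeodomain factor that hair cells need for survival, lies on chromosome 2 (28907679 to 28916668, minus strand). It was at 7.17 and 16.4 CPM in letters C and D, against 0 UMIs in letters A and B. The pooled level of 11.4 CPM was at least 11.96-fold higher in GAP cells. It rested on few cells, since 13 of 180 GAP cells held a transcript, 1 cell held 26 of the 61 UMIs, and the 5 richest cells held 85.2%. Lhx3, a LIM homeodomain factor of hair cells, pituitary and motor neurons, lies on chromosome 2 (26200212 to 26208289, minus strand). It was at 6.48 and 6.16 CPM in letters C and D, against 0 UMIs in letters A and B. The pooled level of 6.34 CPM (34 UMIs) was at least 6.51-fold higher in GAP, and again 13 GAP cells held a transcript. Lhx3 is the one member that shares exon bases with another gene, 188 bases with the antisense gene Gm27196, which had 1 UMI in GAP cells and 0 in control cells.

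The co-regulators, which act through other DNA-binding proteins, were more widespread. Runx1t1, a co-repressor of the ETO family, lies on chromosome 4 (13743436 to 13893649, plus strand). It was at 235 and 181 CPM in letters C and D, against 0 UMIs in letters A and B. The pooled level of 211 CPM was at least 228-fold higher in GAP cells. It was found in 68.3% of GAP cells, and in 47.8% after thinning to 8000 UMIs, the widest share of the 7 genes that were near 0 in control cells. Lmo1, a protein of LIM domains without a DNA-binding domain, lies on chromosome 7 (109138572 to 109175207, minus strand). It was at 103.4 and 79.6 CPM in letters C and D, against 0 and 0.99 CPM in letters A and B. Its 2 control UMIs were in 1 cell, and the pooled ratio was 185 (51.02 to 1534). A transcript was found in 94 of 180 GAP cells and 1 of 180 control cells.

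Rbm24 regulates splicing in muscle and in hair cells and lies on chromosome 13 (46418434 to 46431095, plus strand). It was at 93.2 and 77.2 CPM in letters C and D, against 0 UMIs in letters A and B. The pooled level of 85.9 CPM was at least 92.8-fold higher in GAP cells. A transcript was found in 58 GAP cells, 41.3% of letter C and 22.7% of letter D, so the letters differed more in cells than in level. Mgat5b lies on chromosome 11 (116918863 to 116986948, plus strand). It was at 50.5 and 63.2 CPM in letters C and D, against 0 UMIs in letters A and B. The pooled level of 56.3 CPM was at least 60.7-fold higher in GAP cells, and 68 GAP cells held a transcript. The ratio of letter C to D was 0.799 (0.633 to 1.008) for Mgat5b and 1.21 (0.999 to 1.46) for Rbm24, and both intervals include 1.

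Levels of different genes are set side by side here per length of exons, taken over all annotated exons of a gene. Whether UMI counts scale with this length was not tested, since the handling of UMIs is not given. On that scale (CPM per exonic kilobase, GENCODE M21 exons) the order in GAP cells was Eya1 at 69.3, Lmo1 at 59.7, Runx1t1 at 26.5, Hes6 at 25.3, Rbm24 at 24.6, Nhlh1 at 14.7, Mgat5b at 12.2, Barhl1 at 2.91 and Lhx3 at 2.08. Runx1t1, Hes6 and Rbm24 are neighbours whose values lie close together. Lmo1, with short exons, stands near Eya1 on this scale although its CPM were lower. In control cells Eya1 was at 52.3 and Hes6 at 6.64 on the same scale.

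The promoters are shown because several members appear together with Atoh1, whose protein binds E boxes as a dimer. The windows are the 250 bases before a RefSeq transcription start (GRCm38.p6), and 11 windows matched 7 members, with none for Eya1 and Runx1t1. The letters CAGCTG and CAGATG, searched on both strands, stood in 7 of 11 windows and in 5 of 7 genes (Barhl1, Hes6, Lhx3, Mgat5b and Nhlh1). Of all 32851 windows of this length 25.5% hold one of them, as do 28.2% of 27025 genes. The 2 motifs are parts of the general E box CANNTG, which 66.2% of all windows hold. Printed are 4 of the windows with a match and that of Rbm24, which holds neither. Each is written 5′ to 3′ on the strand of its gene, with the matched letters in capitals.
Barhl1 (chr2:28916669-28916918, - strand): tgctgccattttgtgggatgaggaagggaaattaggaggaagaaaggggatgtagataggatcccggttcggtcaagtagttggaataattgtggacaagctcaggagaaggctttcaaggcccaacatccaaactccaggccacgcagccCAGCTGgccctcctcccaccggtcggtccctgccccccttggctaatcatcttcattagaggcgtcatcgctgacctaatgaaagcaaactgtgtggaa
Hes6 (chr1:91414039-91414288, - strand): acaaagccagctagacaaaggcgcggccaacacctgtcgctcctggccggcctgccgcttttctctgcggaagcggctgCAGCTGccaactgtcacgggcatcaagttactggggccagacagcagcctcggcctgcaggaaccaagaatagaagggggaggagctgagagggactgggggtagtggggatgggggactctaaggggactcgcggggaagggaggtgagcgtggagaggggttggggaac
Nhlh1 (chr1:172057597-172057846, - strand): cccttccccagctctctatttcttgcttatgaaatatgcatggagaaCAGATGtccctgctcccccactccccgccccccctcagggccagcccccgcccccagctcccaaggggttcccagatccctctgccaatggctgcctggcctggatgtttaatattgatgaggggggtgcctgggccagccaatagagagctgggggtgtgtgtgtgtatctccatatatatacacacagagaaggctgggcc
Mgat5b (chr11:116918613-116918862, + strand): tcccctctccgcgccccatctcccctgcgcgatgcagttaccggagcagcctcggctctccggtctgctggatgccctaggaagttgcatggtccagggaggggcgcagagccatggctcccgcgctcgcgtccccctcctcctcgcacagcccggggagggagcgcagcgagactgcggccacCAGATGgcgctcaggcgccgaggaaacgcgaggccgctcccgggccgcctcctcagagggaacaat
Rbm24 (chr13:46418050-46418299, + strand): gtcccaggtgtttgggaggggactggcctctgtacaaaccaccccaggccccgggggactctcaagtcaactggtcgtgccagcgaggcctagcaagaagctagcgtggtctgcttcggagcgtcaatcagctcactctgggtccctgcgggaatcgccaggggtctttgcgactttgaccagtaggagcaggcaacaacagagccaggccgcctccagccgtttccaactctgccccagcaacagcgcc
The match lies at position -99 from the start in Barhl1, -171 in Hes6, -203 in Nhlh1 and -66 in Mgat5b. Hes6, on in control cells, and the other 3, near 0 there, thus both hold such letters. A match describes the letters and not a bound site, and the missing match in Rbm24 speaks only of this window. No chromatin was measured here.

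The authors' annotation places 341 of the 360 cells in 9 clusters. GAP cells make up clusters 1 (named Reprogammed Sup Cells 1, 54 cells), 2 (Reprogrammed Hair Cells, 51 cells) and 7 (Reprogrammed Supp Cells 2, 20 cells). Control cells make up most of clusters 0, 3, 4 and 6, and clusters 5 and 8 hold both. The clusters can have used these genes, so differences between them are a description. Cluster 2 had the highest level of hair cell markers. The 10 listed summed to 4156 CPM in cluster 2, 2510 in cluster 1 and 977 in cluster 7, against 266 CPM in all control cells. Supporting cell markers summed to 12679 CPM in cluster 2 and 13508 in cluster 1, against 12431 CPM in all control cells. Cluster 2 cells thus carried both kinds of marker. The sums hide differences between markers. Gene by gene, the 9 measured supporting cell markers had a median log2 ratio of -0.79 for all GAP over control cells. The median of all genes was 0.10, and 1 marker was at least 2-fold higher (Fgfr3) and 1 lower (Ceacam16).

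**Figure D2:**
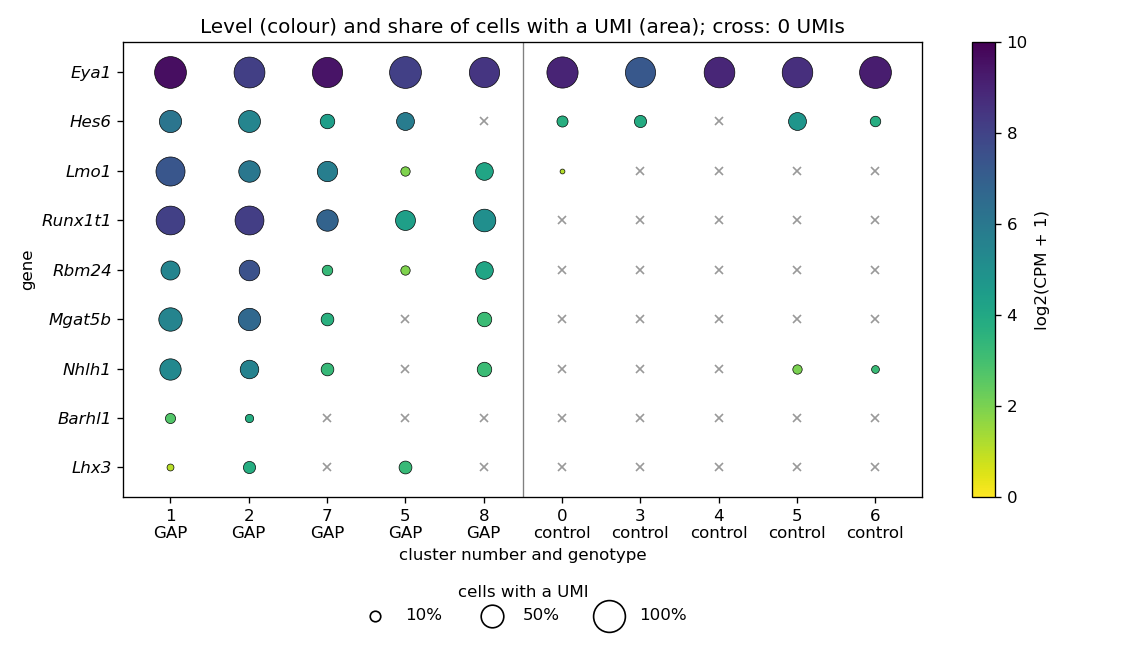
Level and share of cells with a UMI for each gene in each cluster and genotype of 10 cells or more, GAP sets left of the line and control sets right. Colour is log2(CPM + 1), circle area the share of cells, and a cross marks 0 UMIs. Runx1t1, Lmo1, Rbm24, Mgat5b and Nhlh1 are seen mainly in GAP clusters 1 and 2 (in cluster 7 a transcript was found in 45% of cells for Runx1t1, 40% for Lmo1 and 10% for Rbm24), and Eya1 is seen in every set, with its lowest level in control cluster 3 (153.2 CPM).

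Set against all control cells, cluster 2 had 8 of 9 measured members at least 2-fold higher (16.5% of all genes), cluster 1 had 6 of 7 (13.2%), cluster 7 had 3 of 5 (19.8%) and cluster 8 had 3 of 5 (17.5%). In cluster 5 the count was 2 of 3 (19.1% of all genes). None was lower by 2-fold or more in clusters 1, 2, 5 and 7 (11.7%, 12.2%, 25.2% and 18.6% of all genes). In cluster 8 the size rule counted Hes6 as lower (22% of all genes), but its 0 UMIs in 10 cells allow up to 12.3 CPM, so that a difference from control cells was not detectable at this depth.

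Runx1t1 reached nearly the same level in both large GAP clusters. It was at 289 CPM in cluster 2 and 271 in cluster 1, against 0 UMIs in control cells. It was at 114.1 CPM in cluster 7, 32.7 in cluster 8 and 19.9 in cluster 5. Clusters 1 and 2 had a transcript in 44 of 54 and 42 of 51 cells. The interval of their ratio of 1.07 (0.934 to 1.22) includes 1, and the ratio was 1.38 in letter C and 0.871 in letter D. Nhlh1 was at 47.8 CPM in cluster 2, 39.4 in cluster 1, 8.77 in cluster 7 and 8.19 in cluster 8, and at 0 UMIs in cluster 5. Its ratio of cluster 2 to 1 was 1.21 (0.856 to 1.71), with 1.58 (1.004 to 2.48) in letter C and 0.983 in letter D. After thinning the ratio turned to 0.593 (0.285 to 1.19) for Nhlh1 and was 1.07 for Runx1t1.

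Rbm24 and Mgat5b were concentrated in cluster 2. Rbm24 was at 177.9 CPM in cluster 2 and 43.4 in cluster 1, against 0 UMIs in control cells. The ratio was 4.10 (3.17 to 5.36), 4.51 in letter C and 4.30 in letter D, and 4.66 after thinning. Without thinning the shares of cells were closer, 41.2% of cluster 2 and 35.2% of cluster 1. After thinning they lay further apart, at 31.4% and 18.5%, though less so than the levels. More cells thus had a transcript in cluster 2, and such cells also held more of it in cluster 2. The richest cell had 1720 CPM there, against 377 CPM in cluster 1. Mgat5b was at 99.7 CPM in cluster 2 and 43.95 in cluster 1, a ratio of 2.27 (1.71 to 3.03) that was 3.17 in letter C and 1.70 in letter D. In cluster 7 Rbm24 had 3 UMIs and Mgat5b 4.

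Lhx3 was also higher in cluster 2, at 13.2 CPM from 19 UMIs of 7 cells, against 1.13 CPM from 2 UMIs of 2 cells in cluster 1. The ratio was 11.7 (2.82 to 103.3). Lhx3 had 3 UMIs in cluster 5 and 0 in clusters 7 and 8. Barhl1 was at 13.2 CPM in cluster 2 and 5.63 in cluster 1, but 1 cell held 78.9% of its cluster 2 UMIs. The ratio of 2.33 (1.03 to 5.62) was 12.4 in letter C and 0.474 in letter D, and 0.991 without the richest cell of each cluster. No cluster can be named as the place of Barhl1 at this depth.

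Eya1 and Lmo1 had the opposite order. Eya1 was at 280 CPM in cluster 2 and 801 in cluster 1, a ratio of 0.349 (0.312 to 0.390), with 0.411 in letter C and 0.310 in letter D. The median cell was at 192 CPM in cluster 2 and 769 CPM in cluster 1. Lmo1 was at 65.1 CPM in cluster 2 and 161.2 in cluster 1, a ratio of 0.404 (0.316 to 0.511), with 0.542 in letter C and 0.313 in letter D. A transcript of Lmo1 was found in 45.1% of cluster 2 cells and 83.3% of cluster 1 cells (31.4% and 53.7% after thinning). Hes6 was at 42.2 CPM in cluster 2 and 68.2 in cluster 1, a ratio of 0.619 (0.448 to 0.849). After thinning the Hes6 ratio was 0.997 (0.471 to 2.10). Without thinning its share of cells was 47.1% in cluster 2 and 48.1% in cluster 1. After thinning the shares were 23.5% and 18.5%.

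**Figure D3:**
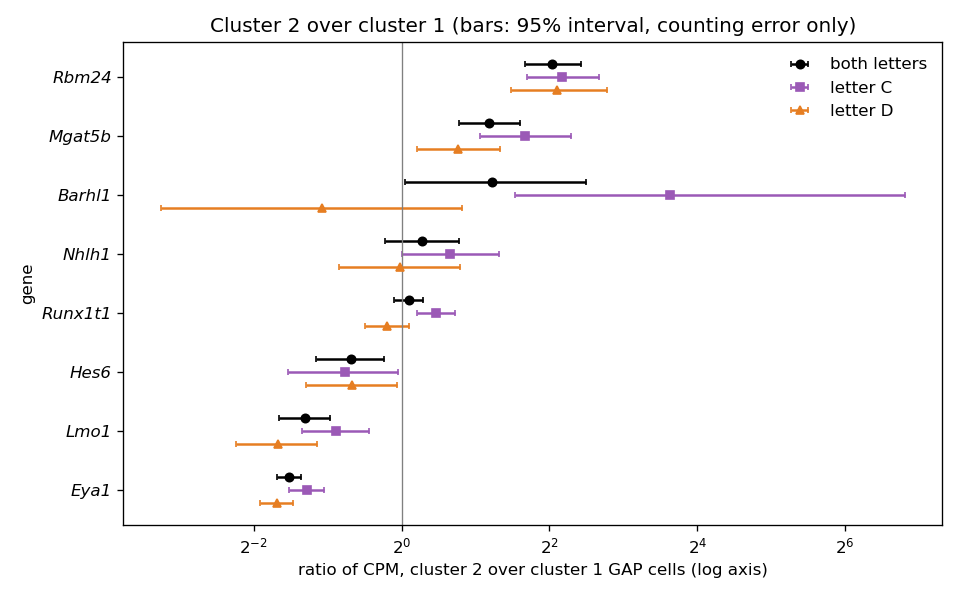
Ratio of CPM of cluster 2 over cluster 1 GAP cells on a log axis, for both letters together (black), letter C (purple) and letter D (orange), with exact 95% intervals of counting error. Rbm24 (4.10) and Mgat5b (2.27) lie above 1 and Lmo1 (0.404) and Eya1 (0.349) below 1 in both letters, while Barhl1, Nhlh1 and Runx1t1 have letters on both sides of 1. Lhx3 is left out because letter D had 0 UMIs in cluster 1.

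By size, 4 of 9 members were at least 2-fold higher in cluster 2 than in cluster 1 (Lhx3, Barhl1, Rbm24 and Mgat5b; 11.6% of all 10263 genes) and 2 were at least 2-fold lower (Eya1 and Lmo1; 8.97%). The median of the 9 log2 ratios was 0.27, against 0.05 for all genes.

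The control clusters also differed in Eya1. It was at 506 CPM in control cells of cluster 0, 153.2 in cluster 3, 486 in cluster 4, 398 in cluster 5 and 592 in cluster 6. Cluster 3 stood apart, at 147.99 CPM in letter A and 159.9 CPM in letter B, and cluster 0 was 3.30-fold above it (2.73 to 4.02). The mixture of clusters differed between the genotypes, and its part in the pooled ratio of Eya1 was not tested. Cluster 2, lowest of the 3 GAP clusters, was below all control cells pooled (ratio 0.684, 0.612 to 0.764), the opposite direction to the pooled ratio of 1.32. GAP cells of cluster 5 were also below them (0.676, 0.545 to 0.830). Of the 5 control sets cluster 2 was above cluster 3 (1.83-fold, 1.49 to 2.25) and below the other 4. Cluster 1 was above the 5 control sets of 10 cells or more, and cluster 7 at 711 CPM (624 to 806) overlapped control cluster 6 (525 to 665) in its interval. Hes6 in control cells was at 12.4 CPM in cluster 0, 13.6 in cluster 3, 26.9 in cluster 5 and 12.5 in cluster 6. In cluster 4, named WT Supp Cells, Hes6 had 0 UMIs in 29 cells, which allows up to 6.54 CPM.

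Cluster 5 holds 13 cells of each genotype and is the only cluster in which both reach 10 cells. Hes6 was at 56.9 CPM in its GAP cells and 26.9 CPM in its control cells, a ratio of 2.11 (0.920 to 5.27), with 1 GAP cell holding 65% of the GAP UMIs and 4 cells of each genotype holding a transcript. Eya1 was at 276 CPM in its GAP cells and 398 CPM in its control cells, a ratio of 0.694 (0.529 to 0.908), below 1 where the pooled ratio was above 1. Runx1t1 had 7 UMIs in 5 of its GAP cells and 0 UMIs in its control cells. By size 2 of 3 measured members were higher here, as were 24.4% of all genes. Of the 13 GAP cells 11 carried letter C, and they differed from the control cells in supporting cell markers, with 2822 CPM for GAP and 15482 CPM for control cells, whose part in these values was not tested.

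**Figure D4:**
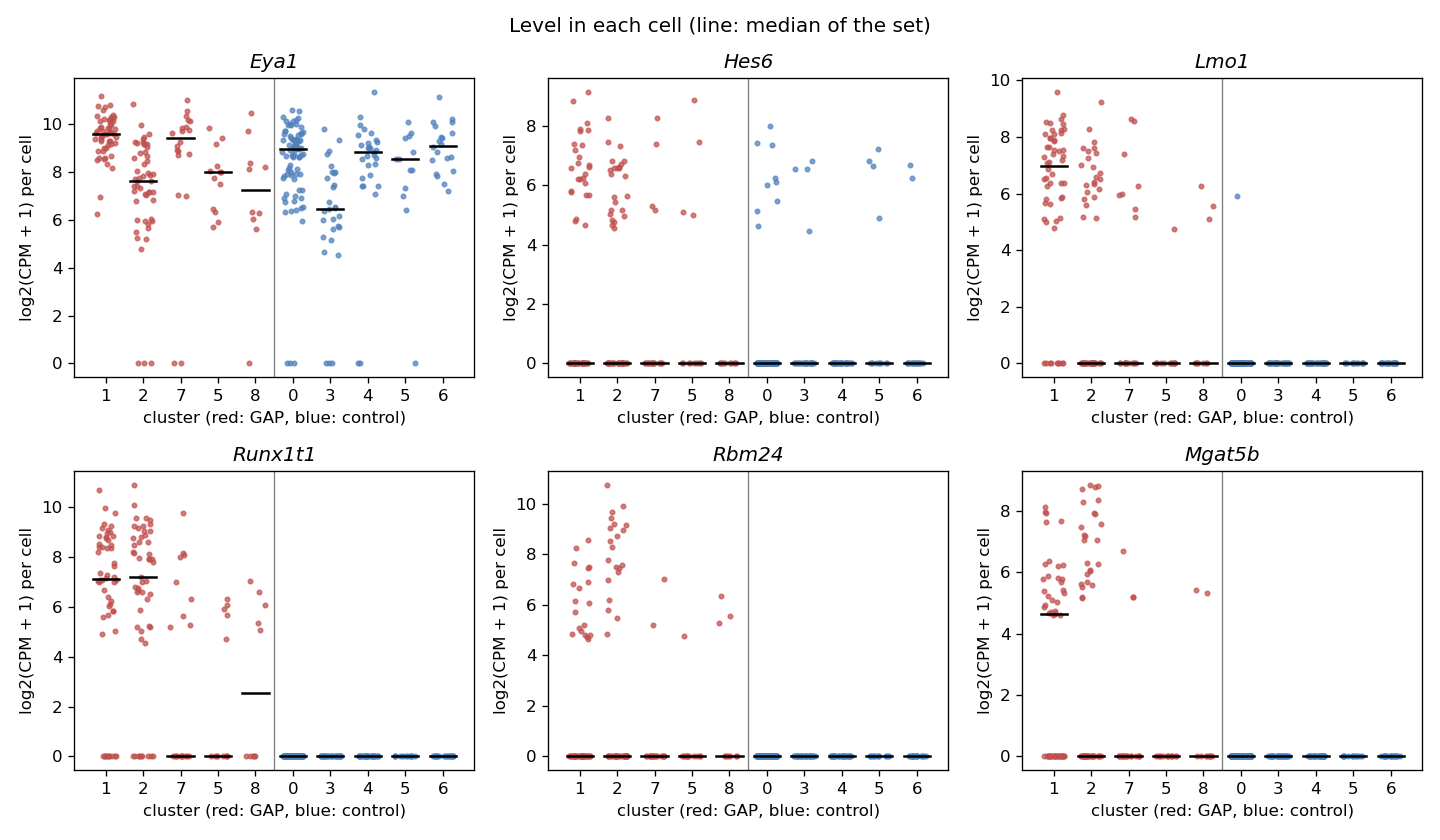
Level of 6 genes in each cell by cluster, as log2(CPM + 1), with GAP cells in red left of the line and control cells in blue right of it, and the median of each set as a bar. Eya1 is spread over all sets, whereas Lmo1 and Runx1t1 have a median above 0 in cluster 1 (126.02 and 137.7 CPM) and, in control cells, 1 and 0 cells above 0.

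The 17 GAP cells without a cluster carried much of the scarcer genes. They held 50.8% of the Barhl1 UMIs of all GAP cells, 26.5% of the Lhx3, 25.8% of the Nhlh1, 25.4% of the Rbm24 and 23.8% of the Mgat5b UMIs. For Lmo1 the share was 18.3%, for Runx1t1 15.2%, for Eya1 14.8% and for Hes6 12.2%. These cells were deep, with a median of 49455 UMIs, 14 of them carried letter C, and together they held 866266 of the 5366362 GAP UMIs. Rbm24 was at 135.1 CPM among them, between clusters 2 and 1. All 9 of their Lhx3 UMIs came from 1 cell, and 1 cell held 26 of their 31 Barhl1 UMIs. Restricted to cells with a cluster, Barhl1 was below the minimum of 10 CPM. The reason that they have no cluster is not stated.

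Members were found together in single cells. Whether this was more frequent than the shares of cells of the single genes would give was not tested. Of the 8 members other than Eya1, only Hes6 was on in control cells, so few could be found together there. With every cell thinned to 8000 UMIs, 3 or more of the 8 members other than Eya1 were present in 23.3% of 180 GAP cells (17.4 to 30.2) and in 0% of control cells that reach this depth, which had at most 1 (0 to 2.06%). The share was 33.3% in cluster 2 (20.8 to 47.9, 51 cells), 31.5% in cluster 1 (19.5 to 45.6, 54 cells) and 0 of 20 in cluster 7. Without thinning, at a median of 28271 UMIs per cell in cluster 2, 34992 in cluster 1 and 15522 in cluster 7, the shares were 58.8%, 83.3% and 10%. At equal depth the shares of clusters 1 and 2 lay within each other's intervals. The spread was wider in cluster 2. Up to 7 members stood in 1 cell of cluster 2 and up to 5 in cluster 1, while 21.6% of cluster 2 and 9.26% of cluster 1 cells had none.

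**Figure D5:**
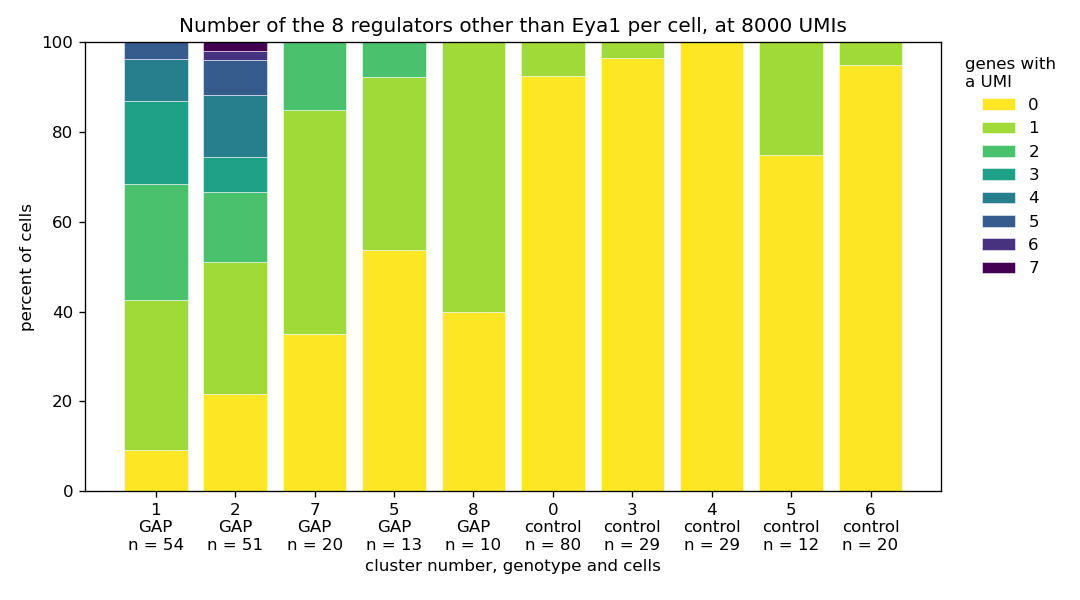
Percent of cells by number of the 8 genes other than Eya1 that have a UMI, with each cell thinned to 8000 UMIs, GAP sets left and control sets right, and n the number of cells. Cells with 3 or more make up 33.3% of cluster 2 and 31.5% of cluster 1, and no control set exceeds 1 gene per cell.

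Overlaps within cluster 2 differed by pair. Runx1t1 was in 82.4%, Lmo1 in 45.1% and Rbm24 in 41.2% of all its cells, which are the shares to set beside overlaps with them. All 7 cells with Lhx3 also had Rbm24 and Runx1t1, and all 23 cells with Lmo1 had Runx1t1. Of 21 cells with Rbm24, 20 had Runx1t1 and 15 had Lmo1. Of 42 cells with Runx1t1, however, 20 had Rbm24, so Runx1t1 was the wider of the pair. Of 24 cells with Hes6, 9 had Rbm24 and 11 had Lmo1. Of 17 cells with Nhlh1, 11 had Rbm24. In cluster 1 the overlap of Lmo1 and Runx1t1 was 36 cells, of 45 with Lmo1 and 44 with Runx1t1. Runx1t1 was thus in 80% of cells with Lmo1, near its share of 81.5% of all cluster 1 cells. These counts are without thinning, and cells of high depth show more genes.

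Several members varied with hair cell markers across the 51 cells of cluster 2. Spearman's rho with the summed hair cell markers was 0.78 for Rbm24, 0.74 for Runx1t1, 0.55 for Lmo1, 0.53 for Mgat5b, 0.50 for Lhx3 and 0.48 for Nhlh1. It was 0.09 for Hes6 and -0.19 for Eya1. With the summed transgene genes it lay between 0.13 for Hes6 and 0.31 for Mgat5b, with -0.07 for Eya1. With the summed supporting cell markers it was -0.53 for Runx1t1, -0.48 for Rbm24, -0.43 for Lhx3, -0.42 for Mgat5b, -0.31 for Lmo1, -0.15 for Nhlh1 and 0.07 for Hes6. The cells share 2 letters, and with UMIs per cell rho lay between 0.15 for Runx1t1 and 0.33 for Mgat5b over the 6 genes named first, with 0.28 for Hes6. In cluster 1, over 54 cells, rho with hair cell markers was 0.50 for Rbm24, 0.41 for Runx1t1 and -0.01 for Lmo1. There Rbm24 had a rho of 0.47 with UMIs per cell.

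The genes most like each member were looked for over the 10 sets of a cluster and genotype, by Pearson's r of log2(CPM + 1) among 10291 genes. Runx1t1 was closest to Atoh1 (r = 0.998), Pou4f3 (0.997) and Slc8a2, a sodium and calcium exchanger (0.996). Rbm24 was closest to Otof, which senses calcium at hair cell synapses (0.981), Pvalb, a calcium buffer (0.973), and Ptprq, a hair bundle phosphatase (0.970). Lmo1 was closest to Clrn1, a hair cell protein of Usher syndrome (0.984), and to Slc34a3 and Ddx11. Mgat5b was closest to Ano3 (0.997), Slc43a1 and Kif27, and Nhlh1 to Mex3a (0.931), Serbp1 and Tmprss9. Most of these genes have 0 or few UMIs in control cells, so that 5 of the 10 points of such an r lie at or near 0. The genes nearest the 2 members on in control cells were of another kind, Abcc5 (0.928), Osbpl6 and Mpp2 for Eya1, and Ttc38 (0.936) and Rap2c for Hes6. Lhx3 was nearest to Rasa3 (0.935), Xpo1 and Fam217b, and Barhl1 to Col6a1 (0.997), Cacna1b and Eif3f, each from few UMIs.

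Relatives and partners of the members were taken from lists. The shares to set beside the counts in these lists are 13% of all genes at least 2-fold higher and 6.61% lower. Of 12 measured genes in the list of EYA proteins and their partners, 3 were at least 2-fold higher (Eya2, Dach1 and Pax2, chosen for naming after their values were seen); the list had a median log2 ratio of 0.04 against 0.10 for all genes. Eya4, a relative of Eya1, had 377 CPM for GAP and 428 CPM for control cells. Among relatives of the homeodomain and bHLH members, Barhl2 and Nhlh2 had 0 UMIs in both genotypes, and Lhx4 had 11 UMIs in GAP cells and none in control cells. In the list of other hair cell transcription factors 3 of 8 measured genes were higher and 0 lower, among them Casz1, a zinc finger factor, with 330.2 CPM for GAP and 52.5 CPM for control cells. The median log2 ratio of that list was -0.02. Lower ratios were those of Zbtb20, a zinc finger factor, with 5870 CPM for GAP and 10011 CPM for control cells (0.586, 0.578 to 0.595), and of Tbx2, a T-box factor (0.740, 0.682 to 0.804).

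The list of HES, HEY and ID repressors, which holds relatives of Hes6, had 4 of 9 genes at least 2-fold higher and none lower. The 4 were Hes1, Hes5, Hey1 and Heyl, of which Hes5 was chosen after its value was seen. The median log2 ratio of the list was 0.69. Of all genes 13% were at least 2-fold higher and 6.61% at least 2-fold lower, with a median of 0.10. GAP cells held Hes1, whose protein HES6 opposes, at 104.9 CPM and control cells at 36.5 CPM (2.88-fold, 2.39 to 3.47). GAP cells held Hey1 at 148.5 CPM and control cells at 30.2 CPM. Hes5 was at 2.77 CPM in cluster 2 and 41.1 in cluster 1, against 0 UMIs in control cells. Of the 3 bHLH partners, Tcf4 was 2.57-fold higher in GAP (2.38 to 2.79), and Tcf3 and Tcf12 had ratios of 1.18 and 1.25.

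Among relatives and partners of Lmo1 and Runx1t1 no gene passed the limit of size. In the list of LIM cofactors 0 of 5 measured genes were at least 2-fold higher or lower, with Ldb1, the usual bridge of LIM domain proteins, at 165.1 CPM for GAP and 141.5 CPM for control cells. Lmo3, a relative of Lmo1, lay just inside the limit, with 16.96 CPM for GAP and 33.7 CPM for control cells (0.503, 0.381 to 0.661), and Lmo4 had a ratio of 1.30 (1.14 to 1.49). In the ETO and RUNX list it was 0 of 3, with Cbfa2t2, a relative of Runx1t1, at 93.5 CPM for GAP and 73.2 CPM for control cells, and Runx1 at 136.8 CPM for GAP and 132.7 CPM for control cells. Cbfb, the partner of RUNX proteins, also lay just inside it, at 5.96 CPM for GAP and 11.5 CPM for control cells (0.519, 0.320 to 0.832). Of 6 measured splicing regulators 2 were higher (Esrp2, and Celf4, which was chosen after its value was seen), against 13% of all genes. Esrp2, an epithelial splicing factor, had 70.4 CPM for GAP and 31.5 CPM for control cells, and Ptbp1 266 CPM for GAP and 135.2 CPM for control cells. Of 6 measured N-glycan branching enzymes 2 were higher (Mgat2 and Mgat3, chosen after their values were seen), against 13% of all genes. Mgat5, the paralog of Mgat5b, had 70.6 CPM for GAP and 60.5 CPM for control cells. Mgat5 thus had transcripts in both genotypes, where Mgat5b had 0 UMIs in control cells.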

How the data were processed

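Single cells of mouse cochlea, 180 of each genotype, were profiled by SMART-MATQ. The authors deposited a matrix of UMI counts over exons per gene and cell, without normalization, and an annotation of cells to clusters. Per the submitters' processing notes, STAR, HTSeq and the mm10 build were used; the versions, the annotation release and the handling of UMIs and strand were not given in the sources used here. Each of 360 count columns matched a sample title, and no 2 were identical.

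Counts were summed over cells and scaled to CPM (python 3.11.15, numpy 2.4.6, pandas 2.3.3, scipy 1.17.1). Levels have exact Poisson, shares Clopper-Pearson and ratios conditional-binomial 95% intervals. The level that 0 UMIs allow was computed at 3 counts over the set of cells. A fold against 0 UMIs is the lower limit of the ratio interval. Genes at 10 CPM or more in a genotype were called by size at 2-fold on the log2 ratio with 1 CPM added. Sets had 10 cells or more. Thinning to 8000 UMIs left out 3 control cells. The ratio computation was checked on simulated counts. No doublet caller was run on the singly sorted cells. Depth per cell was 8550 to 60218 UMIs in GAP and 6985 to 55129 in control cells. Positions come from GENCODE M21, in which 8 of 9 gene IDs have the same version, and promoters from RefSeq. All 9 members are named, with up to 4 genes per list by UMIs and up to 3 per member by likeness; some genes these rules pick are not reported here. The members, lists and rules were chosen with earlier results of these data known. Alternatives were other scalings (edgeR 4.0.16 for TMM), mean CPM per cell, depth limits, thinning, pseudocounts, level limits, and leaving out a letter, the richest cell or cells without a cluster.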

Additional observations from a re-analysis of the deposited data

How the results depend on the processing

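No paired analysis was possible because each genotype is 1 sample and the letters and wells of the titles pair no cells. The number of members at least 2-fold higher in GAP was 7 and lay between 6 and 8 under all alternatives except a minimum of 50 CPM, which left 5 members measured and 4 higher; fewer genes pass that limit. Where it was 6, with mean CPM per cell, thinning, only clustered cells, without letter D or without the richest cells, Barhl1 was below 10 CPM. Counts over all genes moved with the handling of low levels. A pseudocount of 10 CPM gave 831 higher and 403 lower, a minimum of 50 CPM gave 484 and 349, and no minimum gave 2851 and 1313. Members on in control cells numbered 1, Eya1, at 20 CPM or without letter A. The share of cells with 3 or more members was 83.3% in cluster 1 and 58.8% in cluster 2 without thinning. For cluster 1 it was 16.7% at 4000 UMIs and 50% where 2 UMIs marked a gene. No log2 ratio of a member changed sign; Eya1 ranged from 0.31 to 0.51 and Hes6 from 1.29 to 2.75. The cluster with the highest level was the same under every alternative for Rbm24, Mgat5b, Lmo1 and Eya1. Without letter C, Runx1t1, Nhlh1 and Barhl1 were highest in cluster 1, as were Nhlh1 after thinning and Barhl1 without the richest cells. Hes6 was highest in cluster 5 control cells after thinning, and Lhx3 in cluster 5 GAP cells by mean CPM per cell. Few UMIs limit Lhx3 and Barhl1.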

Other observations

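The 15 GAP cells in clusters 0, 3, 4 and 6, which hold mainly control cells, are part of the pooled GAP values above but were not described as a set. They had a median of 22137 UMIs. Eya1 was at 644 CPM among them (561 to 734), against 432 CPM in the control cells of the same clusters, a ratio of 1.49 (1.29 to 1.72). Runx1t1 had 5 UMIs in 3 cells, Lmo1 3 UMIs in 2 cells, Rbm24 2 UMIs in 2 cells and Mgat5b 2 UMIs in 1 cell. Nhlh1 had 0 UMIs, which allows up to 8.74 CPM. Hes6 had 6 UMIs in 3 cells, 17.5 CPM, against 11.03 CPM in the control cells of these clusters.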
